A study of Homo sapiens with 6 samples.

Results

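The spectraplakin genes DST and MACF1 were followed probe set by probe set in BT549 cells with and without induced miR-200c. A spectraplakin is a giant linker protein that can bind actin filaments at one end and microtubules at the other, with a long run of spectrin repeats between them. DST encodes dystonin, also called BPAG1, whose transcripts are known to differ between tissues. The epithelial form anchors keratin filaments at hemidesmosomes, the junctions that fasten epithelial cells to the basement membrane, while other forms are known from neurons and muscle. MACF1, also called ACF7, guides growing microtubules along actin towards focal adhesions and takes part in Wnt signalling. For both genes, alternative starts and alternative splicing decide which binding domains a protein holds.

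All table rows whose platform gene symbol is exactly DST or MACF1 were taken, 560 of 924687 rows and 2 of 22085 genes. DST had 279 rows and MACF1 281. Of the DST rows, 153 were exon regions (names starting with PSR) and 126 were exon junctions (names starting with JUC). Of the MACF1 rows, 147 were exon regions and 134 were junctions. 0 rows named either gene together with another one. Both genes were chosen because rows inside them moved opposite ways in the comparison described here, so their values are given as a description and nothing about them was tested in it.

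BT549 is an established human triple-negative breast cancer line of mesenchymal appearance. All 6 cultures carried pTripZ-200c, an inducible construct for the microRNA miR-200c, and were grown attached in RPMI medium with 10% serum. 3 cultures (Ctrl A, B and C) were left without doxycycline and 3 (miR-200c A, B and C) received 1 µg/mL doxycycline, both for 48 h. Every treated culture received both the drug and the microRNA, so the 2 cannot be told apart, and a culture without the construct was not analysed here. Each culture gave 1 array of log2 intensities, with array medians between 5.18 and 5.21. The 23 background rows had values between 4.10 and 6.36 and row means of at most 6.29. A row mean of up to 6.29 is called within the background range below.

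Markers of the labelled cell type were read first. VIM, FN1, CDH2 and SPARC, genes of mesenchymal cells, had mean log2 intensities over their rows well above the background range on all 6 arrays. The hormone receptor genes ESR1 and PGR, the leukocyte genes PTPRC and CD3E and the endothelial gene PECAM1 were within it on all 6. The row of MIR200C, the induced microRNA, read 4.67, 5.15 and 5.07 on Ctrl A, B and C and 9.50, 9.53 and 9.55 on miR-200c A, B and C, a rise of at least 3.24 above the background limit. ZEB1, a repressor of epithelial genes and a known target of the microRNA, fell by 0.77 ± 0.036 (SE, n = 3 per group; adjusted p 1.07e-05, limma), a call that was lost, at -0.51, with the median over its rows in place of the mean. The epithelial cadherin gene CDH1 rose by 1.77 ± 0.048 (SE, n = 3 per group; adjusted p 5.92e-07, limma), from a mean within the background range. Its treated mean stood 0.81 above the background limit. KRT8, another epithelial marker, was above the background range already without doxycycline, at a mean of 8.07, and rose by 1.10. The epithelial genes EPCAM and CLDN4 had both means within that range. EPCAM rose by 0.49, and CLDN4 did not pass an adjusted p of 0.05 (limma). Of the mesenchymal genes, FN1 fell by 0.41 and SPARC by 0.23, CDH2 rose by 0.15 and VIM did not pass.

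The mature sequences of the induced hairpin are shown because they define the treatment, with the seed (bases 2 to 8 from the 5′ end) in capitals, from RefSeq (GRCh38.p14, chromosome 12, + strand, at chr12:6963742-6963764 for the 3p strand and chr12:6963703-6963724 for the 5p strand). The seeds of both differ.
hsa-miR-200c-3p: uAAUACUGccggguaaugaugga
hsa-miR-200c-5p: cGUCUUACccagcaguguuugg

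RefSeq's table holds 3 start windows for each gene, each 250 bases before to 50 bases after an annotated start. They were searched on both strands for CAGGTG, the E-box letters that ZEB1 is known to bind, whose reverse complement is CACCTG, since ZEB1 fell in these cells. 1 of the 6 windows held a match. It lies at base 138 of a MACF1 window at chr1:39083917-39084216 on the + strand, printed here with the match in capitals. Of all 35116 windows in that table, 20.6% held these letters, so a match in 1 of 6 is a description only.
MACF1 start window: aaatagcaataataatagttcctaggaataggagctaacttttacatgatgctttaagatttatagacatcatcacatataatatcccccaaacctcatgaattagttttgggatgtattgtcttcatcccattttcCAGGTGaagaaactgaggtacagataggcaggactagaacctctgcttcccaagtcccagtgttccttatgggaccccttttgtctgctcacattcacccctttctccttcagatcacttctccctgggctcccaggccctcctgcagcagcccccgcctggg

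Averaged over all their rows, both genes were somewhat higher with doxycycline. The DST mean was 9.22, 9.05 and 9.11 on Ctrl A, B and C and 9.24, 9.27 and 9.30 on miR-200c A, B and C, a difference of 0.15 between group means of 9.13 ± 0.085 and 9.27 ± 0.034 (SD, n = 3). The MACF1 mean was 7.96, 7.79 and 7.86 untreated and 8.27, 8.25 and 8.25 with doxycycline, a difference of 0.39. Neither pair of groups overlapped, and the median difference over all genes was -0.01. The rows beneath these means were far more spread. In DST 4 rows were higher and 11 lower by at least 1 on the log2 scale with groups that did not overlap. In MACF1 33 rows were higher and 7 lower by the same rule. Over all rows of the table, 0.371% were higher and 0.192% lower by that rule. Among rows above the background range in at least 1 group the shares were 0.917% and 0.49%. Limma's fit over all rows called 0.451% of rows higher and 0.277% lower at an adjusted p under 0.05. Both genes were picked on this contrast, so nothing is read from these shares. The junction row nearest the limit in DST was JUC06010720 at 1.07, and the highest one outside it stood at 0.94. In MACF1 JUC01003938 stood at 1.02 and the highest junction row outside the limit at 0.99. Without the array miR-200c A, 8 DST rows in place of 4 were higher by at least 1.

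**Figure D1:**
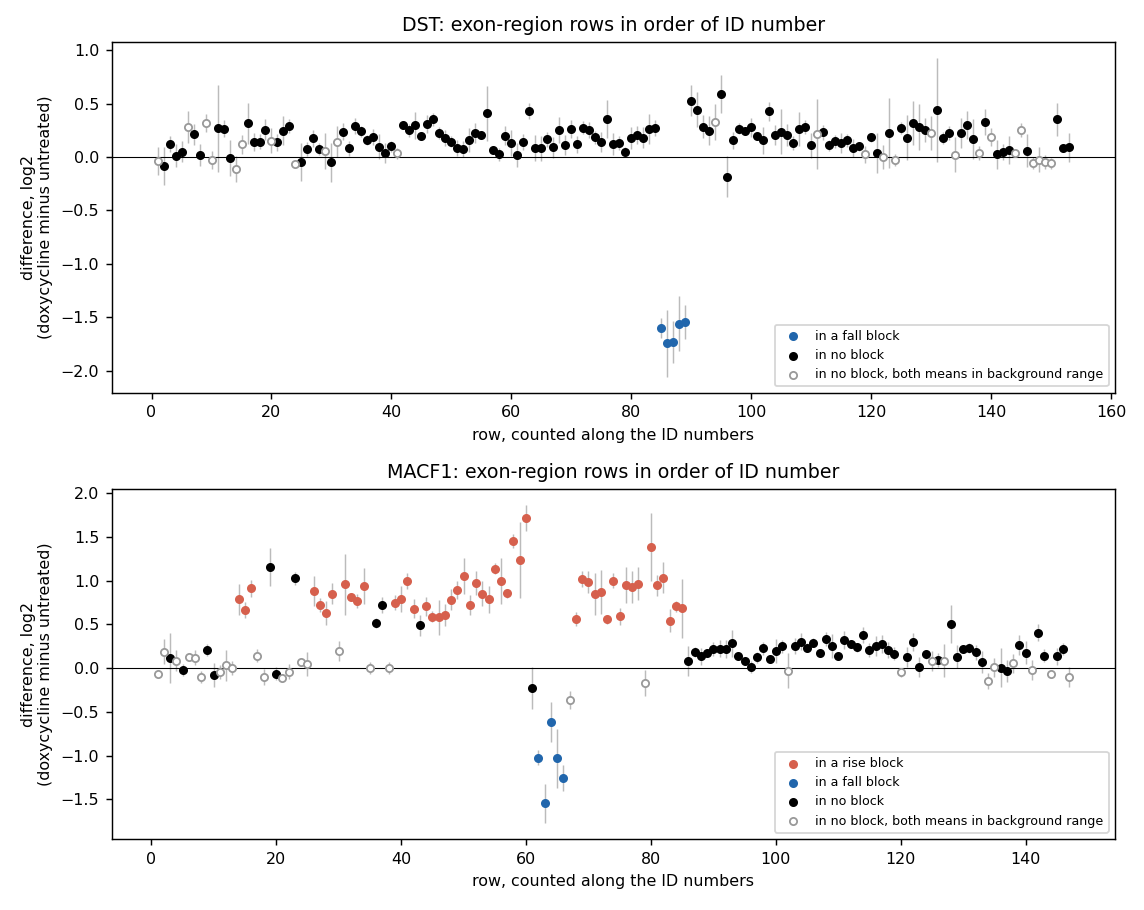
Difference in mean log2 intensity, doxycycline minus untreated, for each exon-region row of DST (top) and MACF1 (bottom) against its place in the order of ID numbers. Points are rows, and grey bars are the standard error of the difference (n = 3 per group). Red and blue mark rows in rise and fall blocks. Open points are rows in no block with both group means within the background range. Block rows are filled whatever their means. They include 1 row of the MACF1 fall block and 1 of its longest rise block with both means within that range. In DST 5 neighbouring rows sit between -1.74 and -1.54 while the others lie between -0.18 and 0.59. In MACF1 a fall block of 5 rows is set between 2 stretches of raised rows.

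Exon-region rows were placed by the number in their name. Across genes this number follows the genome: on the + strand of chromosome 1, which holds MACF1, 99.48% of neighbouring genes ascended in RefSeq order, and on the - strand of chromosome 6, which holds DST, 99.76% did. If the order also holds inside a gene, the rows of MACF1 run from its 5′ to its 3′ end and those of DST from its 3′ to its 5′ end. That was not tested within the genes, and no row is given a coordinate, because no source used here names the array's genome build. A block below is a run of at least 3 neighbouring rows of 1 kind that all moved the same way by at least 0.5.

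DST held 1 block among its exon regions, a fall block of 5 rows that runs from PSR06022214 to PSR06022220, places 85 to 89 of 153. Its mean was 8.36, 7.89 and 8.02 on Ctrl A, B and C and 6.53, 6.37 and 6.47 on miR-200c A, B and C, so that the block fell by 1.64. The untreated arrays were all higher than the treated ones, and this held in each of the 5 rows. PSR06022214 read 8.40, 8.34 and 8.26 untreated and 6.84, 6.57 and 6.79 with doxycycline, a difference of -1.60. PSR06022217 read 8.20, 7.13 and 7.53 against 5.91, 5.83 and 5.88. Its treated mean of 5.87 lies within the background range, so that its measured difference of -1.74 gives a drop of at least 2.52-fold. PSR06022218 read 7.62, 7.10 and 7.10 against 5.58, 5.36 and 5.67, at least 1.98-fold lower for the same reason. The other rows of the block stayed above the background range in both groups. PSR06022219 read 8.51, 7.81 and 8.58 against 6.83, 6.78 and 6.59, a difference of -1.56. PSR06022220 read 9.05, 9.10 and 8.63 against 7.47, 7.28 and 7.41, a difference of -1.54. Rows numbered PSR06022215 and PSR06022216 were not among the rows analysed here.

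The edges of the DST block were sharp. PSR06022213, the row before it, read 11.37, 11.21 and 11.27 untreated and 11.45, 11.64 and 11.57 with doxycycline, a difference of 0.27. PSR06022221, the row after it, read 9.93, 9.61 and 9.85 against 10.13, 10.34 and 10.51, a difference of 0.53. Neither row's groups overlapped, and both moved opposite to the block. Of the 84 rows before the block 73 were above the background range in at least 1 group, with a median difference of 0.16. Of the 64 rows after it 49 were, with a median of 0.21. All 148 rows outside the block lay between -0.18 and 0.59. Among those whose groups did not overlap, the largest rises were PSR06022228 (0.59), PSR06022221 (0.53), PSR06022222 (0.44) and PSR06022190 (0.43), and none of them formed a rise block. The 2 DST exon regions named for their high untreated values, PSR06022253 and PSR06022235, moved by 0.10 and 0.20. The fall block kept its 5 rows with each array left out in turn. A rise block appeared in DST when Ctrl A was left out (4 rows) and when miR-200c A was left out (3 rows).

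The junction rows of DST, whose probes span the seam between joined exons, moved further and in both directions. JUC06010710 read 6.21, 5.99 and 5.74 on Ctrl A, B and C, within the background range, and 8.86, 9.37 and 9.46 on miR-200c A, B and C. Its measured difference was 3.25, and against the background limit it was at least 7.71-fold higher with doxycycline. The lowest treated array stood more than 2 log2 units above the highest untreated one. JUC06010700 read 5.67, 5.41 and 4.89 against 7.37, 6.93 and 7.40, at least 1.93-fold higher. JUC06010703 read 6.39, 6.68 and 6.14 against 7.76, 7.55 and 7.32, a difference of 1.14 between means that both lay above the background range. JUC06010720 read 5.77, 5.27 and 5.96 against 6.69, 6.46 and 7.07, at least 1.37-fold higher. These 4 were all the junction rows of DST that were higher by at least 1.

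**Figure D2:**
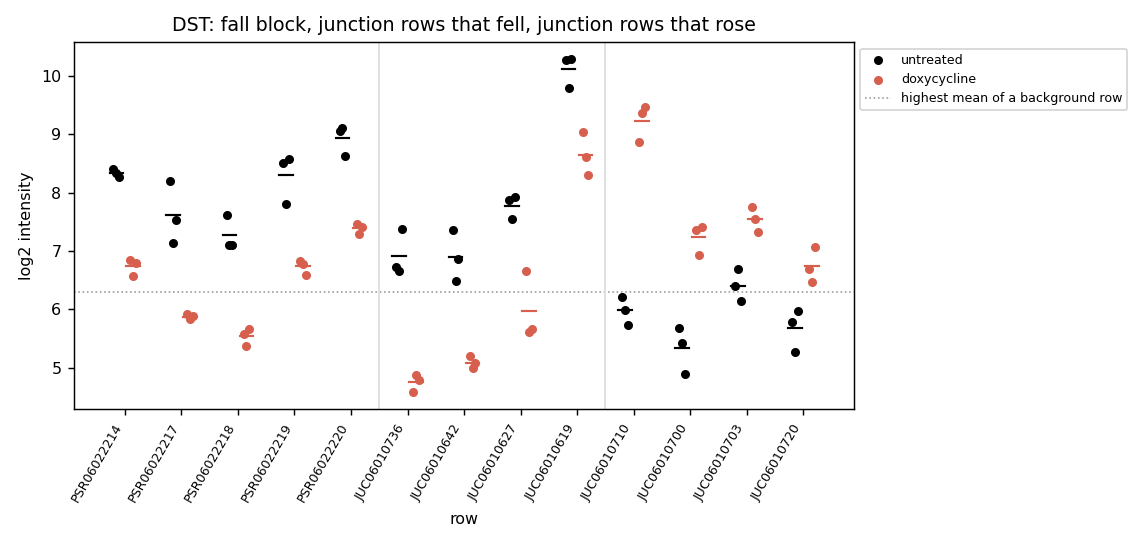
Log2 intensity on each array for the 5 exon-region rows of the DST fall block (left), the 4 DST junction rows with the largest falls (middle) and the 4 with the largest rises (right). Points are arrays, short bars are means of 3 arrays, black is untreated, red is doxycycline, and the dotted line marks 6.29, the highest mean of a background row. In every row shown the 2 groups are apart, and JUC06010710 goes from below the dotted line to 9.23.

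In DST 6 junction rows were lower by at least 1. JUC06010736 read 6.73, 6.65 and 7.37 untreated and 4.57, 4.87 and 4.79 with doxycycline, a measured difference of -2.17. JUC06010642 read 7.35, 6.47 and 6.86 against 5.19, 4.99 and 5.08, a difference of -1.81. JUC06010627 read 7.86, 7.55 and 7.92 against 6.65, 5.62 and 5.66, a difference of -1.80 in which miR-200c A stood apart from the other treated arrays. In these 3 rows the treated mean was within the background range, so the bounded drops were at least 1.55-fold, 1.52-fold and 2.81-fold. JUC06010619 stayed well above that range in both groups, at 10.27, 9.78 and 10.29 against 9.03, 8.60 and 8.29, a difference of -1.47. The other 2, JUC06010705 (-1.41) and JUC06010681 (-1.34), also had treated means within that range and were at least 1.99-fold and 1.27-fold lower. The remaining 116 junction rows lay between -0.48 and 0.94 with a median of 0.21. JUC06010670 and JUC06010684, named for their high untreated values, moved by 0.23 and 0.34. A junction's number did not place it against the exon regions, so which junctions border the fall block is not stated.

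MACF1 showed a different layout in the order of ID numbers, in which a long stretch of exon-region rows rose and a short fall block lay inside it. These stretches were drawn after the values were seen. The first 13 exon regions, PSR01007526 to PSR01007541, held 4 rows above the background range, whose differences lay between -0.08 and 0.20. One of them, PSR01007537, read 12.49, 12.14 and 12.37 untreated and 12.23, 12.42 and 12.12 with doxycycline, so that its groups overlapped. From place 14 to place 60, PSR01007542 to PSR01007596, 37 of 47 rows were above the background range, with a median difference of 0.82, and 36 of the 37 were higher in all treated arrays than in any untreated one. The mean of those 37 rows was 8.61, 8.42 and 8.50 on Ctrl A, B and C and 9.37, 9.35 and 9.35 on miR-200c A, B and C. The treated arrays lay closer together than the untreated ones, with SDs of 0.014 and 0.096 (n = 3).

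The rises were largest at the end of that stretch. PSR01007596 read 6.11, 5.80 and 6.23 untreated, within the background range, and 7.80, 7.60 and 7.89 with doxycycline, at least 2.79-fold higher. PSR01007592 read 7.69, 7.43 and 7.52 untreated and from 8.97 to 9.04 on the treated arrays, a difference of 1.45 with both means above the range. PSR01007593 read 6.90, 5.53 and 6.27 against 7.13, 7.65 and 7.64, at least 2.28-fold higher. The spread of its untreated arrays (SD 0.689) left a narrow gap between the groups. The longest block of exon regions in the gene, 17 rows from PSR01007574 to PSR01007596, went from a mean of 7.77 ± 0.14 to 8.71 ± 0.035 (SD, n = 3).

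The fall block followed after 1 row. It held 5 exon regions, PSR01007598 to PSR01007602, at places 62 to 66 of 147. Its mean was 6.87, 6.42 and 6.67 on Ctrl A, B and C and 5.62, 5.57 and 5.49 on miR-200c A, B and C, so that it fell by 1.10. The groups were apart in all 5 rows, but every treated mean was within the background range, so each drop is a bound. PSR01007599 read 7.49, 7.12 and 7.05 against 5.99, 5.38 and 5.64, at least 1.91-fold lower. PSR01007602 read 6.95, 6.88 and 7.14 against 5.94, 5.75 and 5.50, at least 1.63-fold lower. PSR01007598, at 6.76, 6.49 and 6.68 against 5.62, 5.56 and 5.67, was at least 1.28-fold lower. PSR01007601 was high on 1 untreated array, at 7.16, 6.09 and 6.29 against 5.42, 5.64 and 5.40, at least 1.17-fold lower. PSR01007600 had both means within the background range and gives no fold. Without Ctrl C the 5 rows no longer met the rule for a block, leaving 0 rows in fall blocks. The rows beside the block, PSR01007597 and PSR01007603, stood at -0.22 and -0.36, the first with groups that overlapped and the second with both means within the background range.

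Raised rows resumed after the row that followed the fall block. From place 68 to place 85, PSR01007604 to PSR01007621, 17 of 18 rows were above the background range, with a median difference of 0.93 and a mean of 6.93 ± 0.15 untreated against 7.79 ± 0.058 with doxycycline (SD, n = 3). PSR01007616, the largest rise there, read 6.35, 5.14 and 5.96 against 6.91, 7.37 and 7.33, at least 1.89-fold higher. From place 86 on the differences were small again: 52 of the last 62 rows were above the background range, with a median of 0.21, close to the medians of DST outside its block. PSR01007649, named for its high untreated value, read 12.45, 12.41 and 12.46 against 12.57, 12.67 and 12.60. In all, 49 exon-region rows and 14 junction rows of MACF1 belonged to rise blocks and 5 exon-region rows to the fall block.

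**Figure D3:**
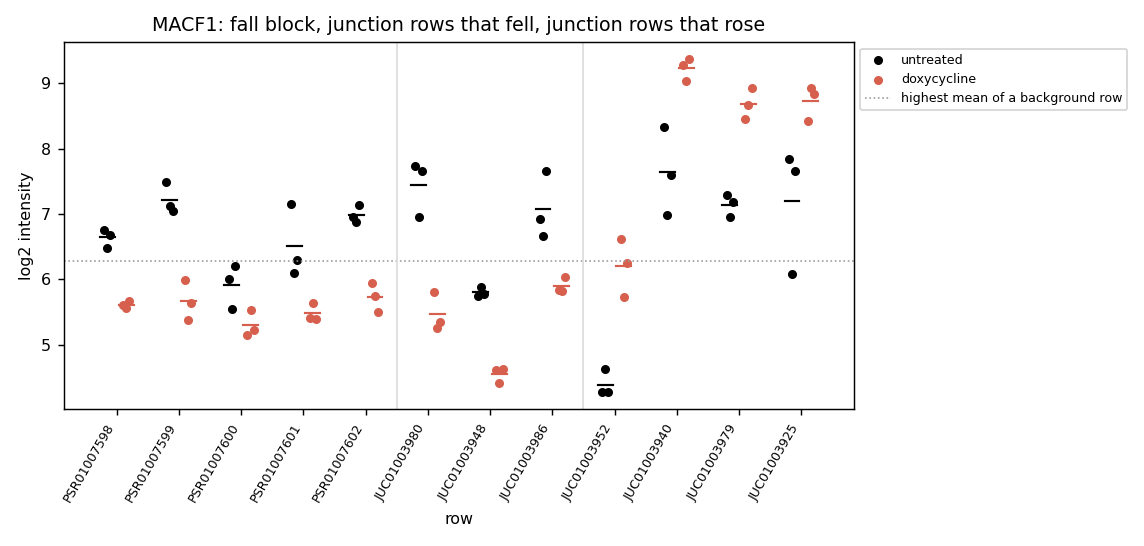
Log2 intensity on each array for the 5 exon-region rows of the MACF1 fall block (left), the 3 MACF1 junction rows that were lower by at least 1 (middle) and the 4 with the largest rises (right). Points are arrays, short bars are means of 3 arrays, black is untreated, red is doxycycline, and the dotted line marks 6.29, the highest mean of a background row. All treated means of the fall block lie below the dotted line, and Ctrl B is the lowest untreated array of JUC01003925 and JUC01003940.

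Among the junction rows of MACF1 22 were higher and 3 lower by at least 1. JUC01003940 read 8.34, 6.98 and 7.59 untreated and 9.28, 9.03 and 9.37 with doxycycline, a difference of 1.59. JUC01003979 read 7.29, 6.95 and 7.19 against 8.45, 8.67 and 8.92, a difference of 1.54. JUC01003925 also moved by 1.54, from 7.84, 6.08 and 7.65 to 8.42, 8.93 and 8.84, with Ctrl B far below the other untreated arrays. JUC01003952 had the largest measured difference, 1.81, but both of its means lay within the background range.

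JUC01003980 was the largest fall among MACF1 junctions, at 7.73, 6.95 and 7.66 on the untreated and 5.81, 5.26 and 5.35 on the treated arrays, at least 2.23-fold lower. JUC01003986 read 6.92, 6.67 and 7.66 against 5.84, 5.83 and 6.04, at least 1.73-fold lower. JUC01003948 (-1.25) had both means within the background range. The other 109 junction rows lay between -0.84 and 0.99 with a median of 0.24. JUC01003960 and JUC01003957, named for their high untreated values, moved by 0.27 and 0.10, and the groups of the latter overlapped.

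**Figure D4:**
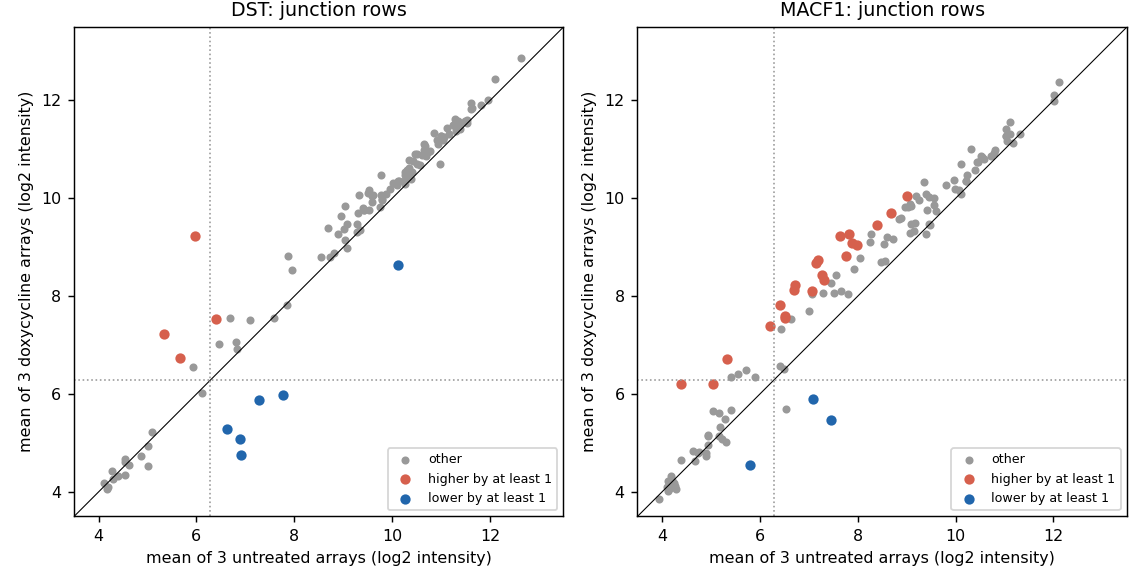
Mean log2 intensity of each junction row with doxycycline (vertical) against untreated (horizontal), for DST on the left and MACF1 on the right. Points are rows (means of 3 arrays), red and blue mark rows higher or lower by at least 1 with groups that do not overlap, the diagonal marks no difference and dotted lines mark 6.29, the highest mean of a background row. DST has 4 red and 6 blue rows away from a tight diagonal, while 22 MACF1 rows are red.

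How often other genes moved both ways was counted with the same rules over the 12288 genes that had at least 20 rows naming them alone. A rise block was found in 404 of them (3.29%), a fall block in 243 (1.98%) and both in 2 (0.0163%), which were MACF1 and AP1S2, the gene of a subunit of a clathrin adaptor at the trans-Golgi network. Without Ctrl A that count was 4, and without Ctrl C it was 1. DST is not among them, because no run of 3 neighbouring rows in it rose by at least 0.5. The 4 DST rows higher by at least 1 were all junction rows. By another rule, set after the values were seen and with no regard to neighbouring rows, 4 or more rows higher and 4 or more lower by at least 1, 2 of 12288 genes were found, and these were DST and MACF1. The limit of 4 is the number of rises in DST itself, so this count is a description.

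The genes most like the pair were ranked by the smaller of their numbers of rows in rise and in fall blocks, over the 6 arrays. AP1S2 came first, with 6 rows in rise blocks and 6 in fall blocks out of 33, and its mean over all rows did not pass the gene fit (difference -0.14, adjusted p 0.128, limma). MACF1 was second with 5, and DST had 0. The other 4 genes taken by the ranking also had 0, with blocks in 1 direction each, so they are no match for the pattern. CFB, the gene of complement factor B, had 207 of 370 rows in fall blocks. LRBA, DOCK9 and PLCB4 had 112, 85 and 73 rows in rise blocks.

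Relatives of the spectraplakins, genes of their partners and splicing regulators were examined in 5 lists. These held 66 measured genes in all, compared by the mean over each gene's rows. With limma's gene fit and an adjusted p under 0.05, 15 rose, 4 fell and 47 did not pass, with a median difference of 0.02. Over all 22085 genes 6.06% rose and 3.84% fell, with a median of -0.01. The lists were chosen with earlier results of these data known, so nothing is read from a difference between these shares. The p-values set each difference against the spread between these cultures of 1 line, which limma moderates across genes. Of the 17 list genes named below that passed, the calls of 6 held under every alternative of the fit, those of 5 were lost only when the rows were summarised by their median, and those of 6 (SPTAN1, SPTBN1, MAPRE1, ERC1, ERBIN and LRP6) were lost on leaving out at least 1 array.

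Of 16 relatives with plakin or spectrin-repeat domains, 4 rose and 0 fell, with a median of 0.04. In 7 of the 16 both means lay within the background range. PPL, the gene of periplakin, a plakin of desmosomes and the cornified envelope, had a mean of 5.61, 5.60 and 5.67 on Ctrl A, B and C and 6.40, 6.40 and 6.45 on miR-200c A, B and C, a rise of 0.79 ± 0.036 (SE; adjusted p 8.38e-06, limma) from a mean within the background range, so that it stood at least 0.13 above the background limit. The nuclear envelope linker gene SYNE2 rose by 0.30 and the spectrin genes SPTAN1 and SPTBN1 by 0.21 and 0.18. Plectin, the gene PLEC, did not pass (difference 0.07, adjusted p 0.406, limma).

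The hemidesmosome list held 7 measured genes, of which 4 rose and 0 fell, with a median of 0.29. In 3 of the 7 both means lay within the background range. KRT5, a keratin of basal epithelial cells, rose by 0.46 (adjusted p 2.96e-04, limma), and ITGB4, the integrin subunit specific to hemidesmosomes, by 0.44 (adjusted p 2.33e-04, limma). The untreated mean of KRT5 and both means of ITGB4 lay within the background range. The treated mean of KRT5 stood 0.05 above the background limit. ITGA6, the partner subunit of ITGB4, read 9.65, 9.50 and 9.68 untreated and 9.88, 9.95 and 10.06 with doxycycline. It rose by 0.35, and its groups did not overlap. ERBIN, which binds ITGB4, rose by 0.29.

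Of 17 genes that act at microtubule ends or the cell cortex, 2 rose, 1 fell and 14 did not pass. In 5 of the 17 both means lay within the background range. KIF21A, a kinesin that restrains microtubule growth at the cortex, rose by 0.54 (adjusted p 2.39e-04, limma) from a mean within the background range. Its treated mean stood 0.05 above the background limit. ERC1, a scaffold of cortical microtubule capture, rose by 0.18. MAPRE1, the gene of the end-binding protein that tracks growing microtubules, fell by 0.22. Of 9 signalling partners of MACF1, 2 rose: DIAPH1, a formin, by 0.22 and LRP6, a Wnt co-receptor, by 0.23. Another 2 of the 9 had both means within the background range.

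Among 17 splicing regulators 3 rose and 3 fell, with a median of 0.00. In 8 of the 17 both means lay within the background range. ESRP1, a splicing factor of epithelial cells, had means of 5.18, 5.25 and 5.16 untreated, within the background range, and 6.71, 6.80 and 6.77 with doxycycline, a rise of 1.56 ± 0.041 (SE; adjusted p 5.33e-07, limma). Its treated mean stood 0.47 above the background limit. QKI, a splicing factor known to rise in mesenchymal states and a known target of miR-200c, read 9.75, 9.63 and 9.77 against 8.39, 8.39 and 8.44, so that it fell by 1.31 ± 0.044 (SE; adjusted p 1.53e-06, limma). RBM47, an RNA-binding protein gene, rose by 0.65 between means that both lay within the background range, and MBNL2, a muscleblind gene, rose by 0.17. ESRP2, the close relative of ESRP1, was within the background range in both groups and did not pass (difference -0.01). These changes moved with the same treatment as the row blocks, and their part in those blocks was not tested.

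**Figure D5:**
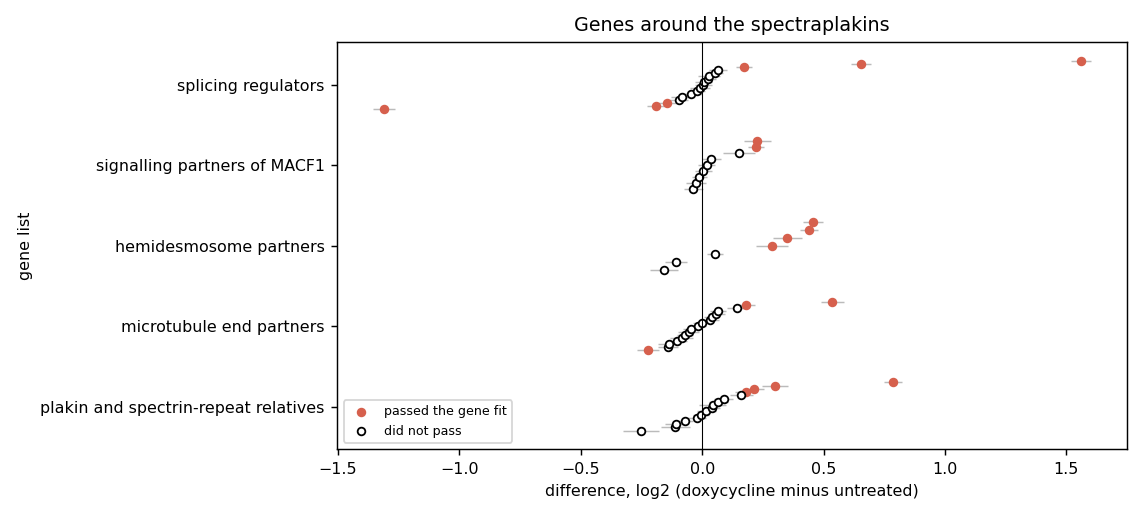
Difference in mean log2 intensity, doxycycline minus untreated (horizontal), for each measured gene of the 5 lists (vertical, genes spread within a list by the size of their difference). Points are genes, grey bars are limma's standard errors (n = 3 per group), and red points passed the gene fit. Most of the 66 genes lie near 0, with ESRP1 at 1.56 and QKI at -1.31 farthest out. Genes with both group means within the background range are included.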

How the data were processed

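The authors deposited log2 intensities, one value per row and array, and the log2 scale was judged by their range. Per the labels' protocols, total RNA was labelled with a FlashTag biotin kit, which is usual for microRNA arrays. The submitters' processing notes name Partek but not its role or version. Genome build, background correction and normalization: not given in the sources used here. 345 control rows were left out of the fits, and values were used as deposited. Rows and gene means (over the 672085 rows naming 1 gene) were fitted in limma 3.58.1 (R 4.3.3; lmFit, eBayes, group as the single term, Benjamini-Hochberg adjustment, threshold 0.05) and tested on simulated data. Tables were read with data.table (version 1.17.8), blocks were built in Python 3.11.15 with pandas 2.3.3, and figures were drawn with matplotlib 3.10.9. In rows with a group mean within the background range, folds were taken against the highest mean of a background row. The number of arrays limits the precision.

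The members and lists were chosen with earlier results of these data known. By rule, the 4 largest rises and falls without overlap, block ends and the 2 rows highest untreated were eligible to be named per gene and kind. From each list up to 4 genes with the smallest adjusted p were named, then 5 genes by likeness, with MIR200C and ZEB1. Rows beside the blocks, PSR01007600, JUC06010705, JUC06010681, JUC01003938, PLEC, ESRP2 and the cell type markers were named in addition, after their values were seen. Replicate letters were not taken to pair the cultures. Same-letter deviations correlated at -0.17 (A), -0.03 (B) and 0.22 (C), and those of unlike letters at -0.41 to 0.44. With so few cultures these values cannot show whether the cultures were run in pairs. Alternatives changed the scaling, the size of difference, overlap, block length, gaps, low rows, the gene summary and the variance model, or left out 1 array.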

Additional observations from a re-analysis of the deposited data

How the results depend on the processing

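The counts in DST and MACF1 depended mainly on the size of difference asked for. With at least 0.5 in place of 1, DST had 12 higher rows and MACF1 100. With at least 2, DST had 1 higher and 1 lower row and MACF1 0 and 0. Relative to the gene mean on each array, the higher rows numbered 2 in DST and 11 in MACF1, and 9 MACF1 rows were in rise blocks. With a block difference of at least 1, MACF1 had 3 rows in rise blocks and 0 in fall blocks, and 0 genes had both kinds of block. With blocks of at least 5 rows, MACF1 had 39 rows in rise blocks and 1 gene had both kinds. With blocks of at least 2 rows, DST had 2 rows in rise blocks and 13 genes had both kinds. With 1 gap row allowed, DST had 3 rows in rise blocks. Leaving out each array in turn gave from 3 to 8 higher DST rows, 0 to 4 DST rows in rise blocks, 0 to 5 MACF1 rows in the fall block and 1 to 4 genes with both kinds of block. DST kept 5 rows in its fall block and MACF1 kept both directions of single rows under every alternative except the limit of 2.

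In the fit over all rows 4167 rose and 2562 fell. With a replicate block, which pairs cultures by letter alone, 837 rose and 365 fell, and leaving out each array gave 1134 to 2298 and 480 to 1272. In the gene fit 1338 rose and 849 fell. With medians over rows as gene values these were 431 and 265, and leaving out each array gave 804 to 1098 and 494 to 797. In the 5 lists 6 rose and 1 fell with the median of rows, 2 fell with brighter rows, and from 2 to 6 fell on leaving out each array. The cause of these shifts was not tested, beyond the fewer arrays or degrees of freedom that some settings leave. No direction reversed under any alternative. The 3 arrays per group and the background limit of 6.29 restrict what can be said of the dim rows: in the MACF1 fall block every treated mean lies under it.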

Other observations

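The symbol KIAA0754, listed by RefSeq as a synonym of MACF1, names 2 exon-region rows of the table that are numbered directly after those of MACF1 and lie just outside the rule. PSR01007701 read 9.61, 9.35 and 9.41 on Ctrl A, B and C and 9.37, 9.52 and 9.38 on miR-200c A, B and C, a difference of -0.03. PSR01007702 read 8.31, 8.29 and 8.35 against 8.27, 8.56 and 8.49, a difference of 0.12. The groups of both rows overlapped. Of the last 62 exon regions of MACF1, 52 were above the background range, with a median difference of 0.21. Of these 52 rows, 30 were higher with groups that did not overlap.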
